A study of Homo sapiens with 4 samples.

Results

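AXL, WTIP, GADD45A, PMEPA1, TAGLN, COL4A2, COL1A2 and ITGAV are 8 of the 858 genes in the authors' deposited comparison of PRMT1 knockdown with control. They are YAP/TEAD target genes, TGF-beta response genes, and matrix and integrin genes of a mesenchymal state. The comparison comes from the long-established pancreatic carcinoma line MiaPaca-2, in which 2 samples expressed a hairpin directed at PRMT1 (shPRMT1) and 2 a non-targeting one (shNTC). PRMT1 is the main enzyme that adds asymmetric dimethyl groups to arginine residues. Both groups share the cell line and its culture medium, and the labels name no second hairpin, no rescue, no clone and no time after transduction. The 8 genes were chosen by gene name from rows that are in the table because their unadjusted p was under 0.05, with their fold changes in view. Their values therefore describe the table, and no test is drawn from them. In the authors' deposited table, shPRMT1 samples had less AXL, PMEPA1 and TAGLN (ratios of 0.458, 0.295 and 0.302) and more COL4A2 (1.49) than shNTC samples, and none of the 8 passed correction for multiple testing.

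The Hippo pathway is a kinase cascade that keeps the coactivator YAP out of the nucleus. When the cascade is off, YAP pairs with TEAD DNA-binding proteins and switches on genes for growth, adhesion and survival, among them the receptor tyrosine kinase AXL. TGF-beta binds a pair of receptor kinases that phosphorylate SMAD2 and SMAD3, which then enter the nucleus with SMAD4. In pancreatic cancer both pathways are known for mesenchymal traits, matrix production and poor response to drugs, and AXL is known as a mark of that state.

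The promoter sequences of AXL, WTIP and PMEPA1 show which recognition motifs of these pathways stand near the gene starts. They come from RefSeq on GRCh38.p14, in windows of 250 bases before and 50 bases from the start site onward. RefSeq windows were matched for 5 of the 8 genes, with 10 windows in all, and TAGLN, COL1A2 and GADD45A were not matched. Motifs were searched on both strands, and the motifs were TEAD (GGAATG), the SMAD half-site (CAGAC), AP-1 (TGANTCA), the E-box bound by ZEB and SNAI repressors (CACCTG) and the GC box (GGGCGG). These patterns can overlap each other by chance, and a match is a string of letters, not a binding site. WTIP, a LIM-domain adaptor that holds back the Hippo kinase LATS, had 3 TEAD matches, at positions −117, −83 and 0 from the start site. They are shown in capitals within 30 bases each, on the plus strand of chromosome 19.

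WTIP chr19:34481629-34481658: ccactccccccaCATTCCagaggccgcagc

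WTIP chr19:34481663-34481692: tctccttcctcgCATTCCtgcccccgcaaa

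WTIP chr19:34481746-34481775: cctgggagcttaCATTCCtccgccgcgcgc

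Of all 35116 RefSeq windows, 14% held at least 1 TEAD match and 45 windows (0.128%) held 3 or more. The motifs were chosen after the promoter sequences were seen, and WTIP had the most TEAD matches of the 10 windows. Shares over all windows are therefore background and no test of WTIP. The first of the WTIP matches also fits the longer TEAD pattern TGGAATGT, which 1.17% of all windows held. In GENCODE 29, 120 of the 250 bases before this WTIP start belong to a WTIP exon, so the annotations place the first exon differently. The WTIP window was 81.3% G or C and also held 3 GC-box matches and 1 SMAD half-site.

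AXL has 2 RefSeq starts. The upstream one, on the plus strand of chromosome 19, held no TEAD match. Capitals in its 250 upstream bases mark 1 E-box, 2 GC boxes and 1 SMAD half-site, in that order.

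AXL chr19:41218973-41219222: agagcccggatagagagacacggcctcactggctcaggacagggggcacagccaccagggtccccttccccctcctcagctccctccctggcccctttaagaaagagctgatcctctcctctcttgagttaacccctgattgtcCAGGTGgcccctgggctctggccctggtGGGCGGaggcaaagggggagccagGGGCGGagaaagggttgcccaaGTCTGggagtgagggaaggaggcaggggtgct

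The downstream AXL start lies inside the gene, and its 250 upstream bases are in no exon of GENCODE 29. Capitals mark the 1 TEAD match, at position −212, between 2 SMAD half-sites.

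AXL chr19:41226505-41226754: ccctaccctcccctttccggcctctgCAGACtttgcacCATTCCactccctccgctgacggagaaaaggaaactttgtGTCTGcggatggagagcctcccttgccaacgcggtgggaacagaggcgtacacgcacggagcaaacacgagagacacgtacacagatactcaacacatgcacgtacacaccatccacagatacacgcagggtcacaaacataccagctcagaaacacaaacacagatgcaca

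PMEPA1, on the minus strand of chromosome 20, has 4 RefSeq windows, none with a TEAD match. The third of them held 2 SMAD half-sites in opposite orientation, 1 base apart and just after the start, shown here in capitals.

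PMEPA1 chr20:57709994-57710023: gcgctgacgtCAGACcGTCTGcctgcctcc

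SMAD half-sites are frequent, with at least 1 in 45.3% of all windows and 3 or more in 2.86%. The share with 2 was not counted, and the second AXL window also held 2. The ITGAV windows held 2 SMAD half-sites in one and no match in the other, and the COL4A2 window held 1 GC box. AP-1 was matched in 7.71% of all windows, the E-box in 20.6% and the GC box in 45.0%. No AP-1 match was found in these 10 windows.

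**Figure D1:**
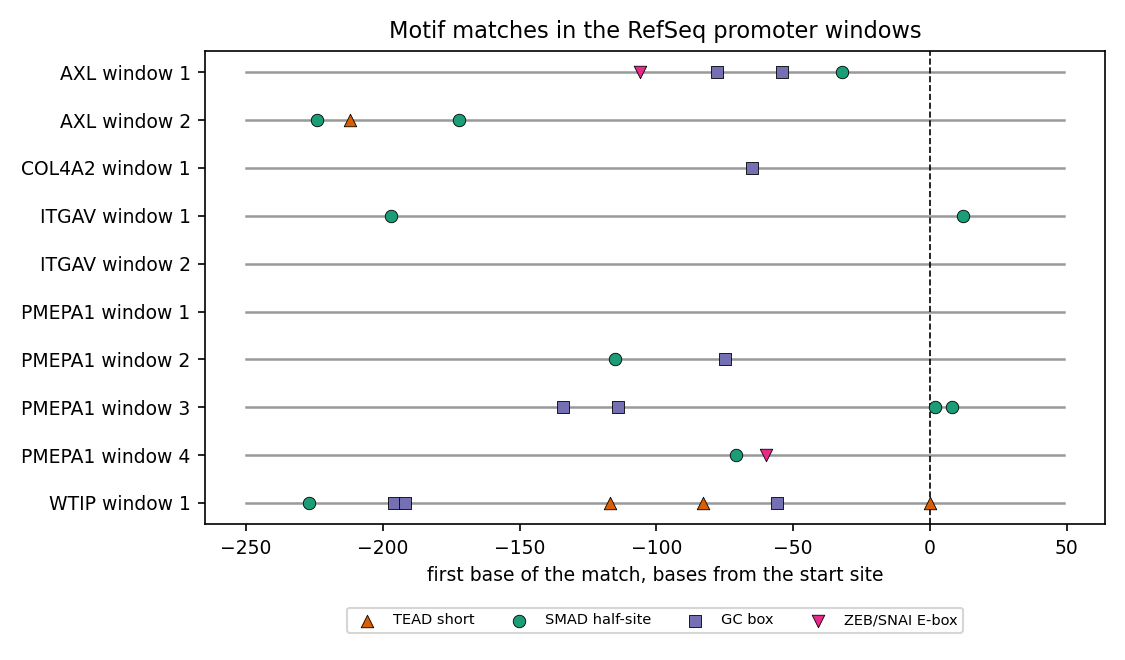
Position of motif matches in the 10 RefSeq promoter windows of AXL, COL4A2, ITGAV, PMEPA1 and WTIP, in bases from the start site (dashed line); grey lines are the windows. WTIP carries 3 TEAD matches, at −117, −83 and 0, and the second AXL window carries 1, at −212.

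The table gives a linear ratio of both groups per gene, its log2 value, a p-value and a Benjamini-Hochberg adjusted p. The header does not say which group is the numerator. shPRMT1 over shNTC was assumed, since PRMT1 itself has a ratio of 0.356 there, in the authors' deposited table (p = 0.0156, adjusted p = 0.411). PRMT1 thus did not pass correction for multiple testing either. If the numerator were shNTC, each direction given here would turn around. A gene said to stand at a value has that log2 fold change. Per-sample values were not analysed here. Replicate spread, expression level and depth are therefore unknown, and the cell line's identity could not be checked against marker levels. The adjusted p-values imply 7640 genes tested, so the table's 858 genes are 11.2% of them. Genes with a ratio under 1 are 6.56% and genes with a ratio over 1 are 4.67% of those tested.

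Of the 8 genes, 7 had a ratio under 1 and 1 (COL4A2) a ratio over 1 in the authors' deposited table. The median log2 fold change of the 8 was −0.50, against −0.12 over the whole table, and the median size regardless of sign was 0.54 against 0.28. Both medians describe genes picked with these values in view. In the authors' deposited table, 58.4% of all genes (501 of 858) had a ratio under 1. None of the 8 had an adjusted p under 0.05, a threshold passed by 1 gene in all (0.0131% of those tested). The unadjusted p was under 0.01 for 2 of the 8 (25%), AXL and ITGAV. That share is close to the 22.3% (191 of 858) of the authors' deposited table, from which the 8 were picked, and those 191 genes are 2.5% of all genes tested.

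**Figure D2:**
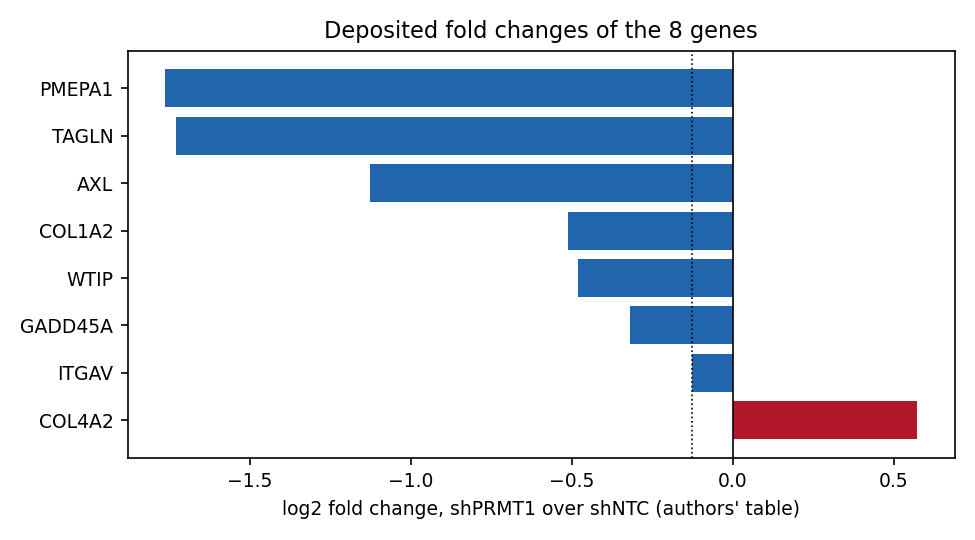
Log2 fold change of shPRMT1 over shNTC for the 8 genes, from the authors' deposited table, without error bars because no values per sample were used; the dotted line is the table's median. PMEPA1 (−1.76), TAGLN (−1.73) and AXL (−1.13) extend past −1, ITGAV (−0.13) ends at the median and COL4A2 (0.57) points the other way.

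AXL (ENSG00000167601.7, chromosome 19, plus strand) is the receptor for the ligand GAS6. In the authors' deposited table its ratio was 0.458, or −1.13 on the log2 scale (p = 0.000788, adjusted p = 0.308). AXL held rank 17 of 858 by p and rank 19 from the lowest log2 fold change in the authors' deposited table. Among the 858 genes of the authors' deposited table, 2 combined a log2 fold change of at least 1 in size with p under 0.001: AXL, and CPAMD8 at 1.18 on the other side. AXL's own values lie close to both thresholds. HRH1, at −2.47 with p = 0.00112 in the authors' deposited table, missed only the threshold on p, as did other genes. AXL was the 1 gene of 5 in the list of its receptor family and ligands, and TYRO3, MERTK, GAS6 and PROS1 were not in the table. For a gene that the table leaves out, a p of 0.05 or more cannot be told from not having been tested.

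WTIP (ENSG00000142279.8, chromosome 19, plus strand) is the Hippo adaptor whose TEAD matches are shown above. The authors' deposited table gave it a ratio of 0.717, or −0.48 on the log2 scale (p = 0.0418). GADD45A (ENSG00000116717.7, chromosome 1, plus strand) encodes a small stress protein of growth arrest and DNA damage responses. In the authors' deposited table its ratio was 0.801, or −0.32 on the log2 scale (p = 0.0398). Both had an adjusted p of 0.432 there. By size, WTIP was rank 113 and GADD45A rank 216 from the lowest, among the 501 genes with a ratio under 1. GADD45A is also a p53 target, and no other gene of the 4 in its family list was in the table.

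Of the 29 genes of the wider YAP/TEAD target list, the authors' deposited table held 5. All 5 had a ratio under 1 (beside 58.4% of all genes in the table), with a median log2 fold change of −0.48. Beside the 3 just described these were NT5E, the ectonucleotidase CD73, at −0.61 (p = 0.0365) and CAVIN2, a caveola coat protein listed under its older name SDPR, at −0.48 (p = 0.00226) in the authors' deposited table. CAVIN2 and AXL were the 2 of these 5 with p under 0.01. The RefSeq window of CAVIN2 held 1 TEAD match and that of NT5E none. The list share of 17.2% stands beside 11.2% over all genes tested, but AXL, WTIP and GADD45A were already in view when the list was drawn up. Without these 3 the authors' deposited table held 2 of 26 (7.69%), a share that taking them out could only lower. List genes may also not have been tested, so neither share is on the same base as the 11.2%. CCN1, CCN2 and ANKRD1, the YAP targets most often used as a readout, were not in the table. Of 29 Hippo kinases, adaptors and YAP/TEAD factors, the authors' deposited table held WTIP and NF2, the Merlin tumour suppressor upstream of the Hippo kinases, at −0.16 (p = 0.0148). YAP1, WWTR1, LATS1, LATS2 and the TEAD genes were not in it.

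PMEPA1 (ENSG00000124225.11, chromosome 20, minus strand) encodes a membrane protein that TGF-beta induces and that binds and restrains SMAD2 and SMAD3. In the authors' deposited table its ratio was 0.295, or −1.76 on the log2 scale (p = 0.0352, adjusted p = 0.432). TAGLN (ENSG00000149591.12, chromosome 11, plus strand) encodes transgelin, an actin-binding protein of contractile cells induced by TGF-beta and by the actin-sensing factor SRF. The authors' deposited table gave it a ratio of 0.302, or −1.73 on the log2 scale (p = 0.0401, adjusted p = 0.432). PMEPA1 and TAGLN were rank 5 and rank 7 from the lowest of all 858 genes by size, but rank 594 and rank 694 by p in the authors' deposited table. They thus paired ratios further from 1 than AXL's with p-values nearer the table's limit, whose highest value is 0.0498.

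PMEPA1 and TAGLN share exonic bases with a gene on the opposite strand, and the labels give no strand setting for the counting. TAGLN shares 446 exonic bases in GENCODE 29 with PCSK7, a proprotein convertase gene that is itself in the authors' deposited table at −0.30 (p = 0.0485). PMEPA1 shares 343 exonic bases with the antisense RNA gene NKILA, which is not in the table. AXL shares 67, ITGAV 203 and COL4A2 14 and 81 exonic bases with antisense genes that are not in the table, while WTIP, GADD45A and COL1A2 share none. Without strand, reads from these overlaps cannot be told apart, and their part in the values was not tested.

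Of 27 TGF-beta response genes, the authors' deposited table held 3 (11.1%, beside 11.2% over all genes tested), PMEPA1 and TAGLN with a ratio under 1 and COL4A2 with a ratio over 1. All 3 are among the 8 chosen genes, and none of the other 24 was in the table. SMAD7, SKIL, TGFBI and the ID genes, which respond directly to SMAD signalling, were not in the table. Of 28 ligands, receptors and SMADs, the authors' deposited table held SMAD2, the receptor-activated SMAD, at −0.08 with p = 0.0494. Of 26 SRF-linked contractile and actin genes, the authors' deposited table held TAGLN and VCL, the adhesion protein vinculin, which stood on the opposite side. VCL was at 0.42 (p = 0.000135) in the authors' deposited table. ACTA2, CNN1, MYL9 and TPM1, other contractile genes of that list, were not in the table.

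COL4A2 (ENSG00000134871.13, chromosome 13, plus strand) encodes a chain of type IV collagen, the sheet-forming collagen of basement membranes. The authors' deposited table gave it a ratio of 1.49, or 0.57 on the log2 scale (p = 0.0229, adjusted p = 0.432). It was rank 83 from the highest log2 fold change and the 1 gene of the 8 above 1. Its protein assembles with COL4A1, and both genes start head to head, with RefSeq start sites 127 bases apart on GRCh38.p14. COL4A1 was not in the table, so this pair of neighbouring starts has a deposited value for 1 gene.

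COL1A2 (ENSG00000164692.13, chromosome 7, plus strand) encodes a chain of type I collagen, the main fibre-forming collagen. In the authors' deposited table its ratio was 0.702, or −0.51 on the log2 scale (p = 0.0429, adjusted p = 0.432). COL1A2 had the highest p of the 8 and lay nearest to the limit of the table. COL1A1, its partner chain, was not in the table. Of 26 collagen chain genes, the authors' deposited table held 3 (11.5%): COL1A2, COL4A2 and COL18A1, a basement membrane collagen, at 0.28 (p = 0.0139). HSPG2, the basement membrane proteoglycan perlecan, was the 1 gene in the table of 28 other matrix and basement membrane genes (3.57%), at 0.31 (p = 0.0331) in the authors' deposited table. Over all genes tested the share was 11.2%, but list genes may not have been tested, so these shares differ in base. None of the 19 collagen processing and crosslinking enzymes was in the table.

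ITGAV (ENSG00000138448.7, chromosome 2, plus strand) encodes integrin alpha V, which binds vitronectin and fibronectin and, with some beta subunits, releases active TGF-beta from its latent complex. The authors' deposited table gave it a ratio of 0.917, or −0.13 on the log2 scale (p = 0.00397, adjusted p = 0.364). ITGAV had rank 77 by p, but its fold change minus the median of the whole table was −0.000238 on the log2 scale. It was the 1 integrin subunit of 21 in the table (4.76%), and none of the beta subunits that pair with it was there. In the list of 29 mesenchymal state genes, COL1A2 and ITGAV were the 2 in the authors' deposited table (6.90%), and VIM, CDH2 and FN1 were not. None of 11 EMT transcription factors was in the table.

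**Figure D3:**
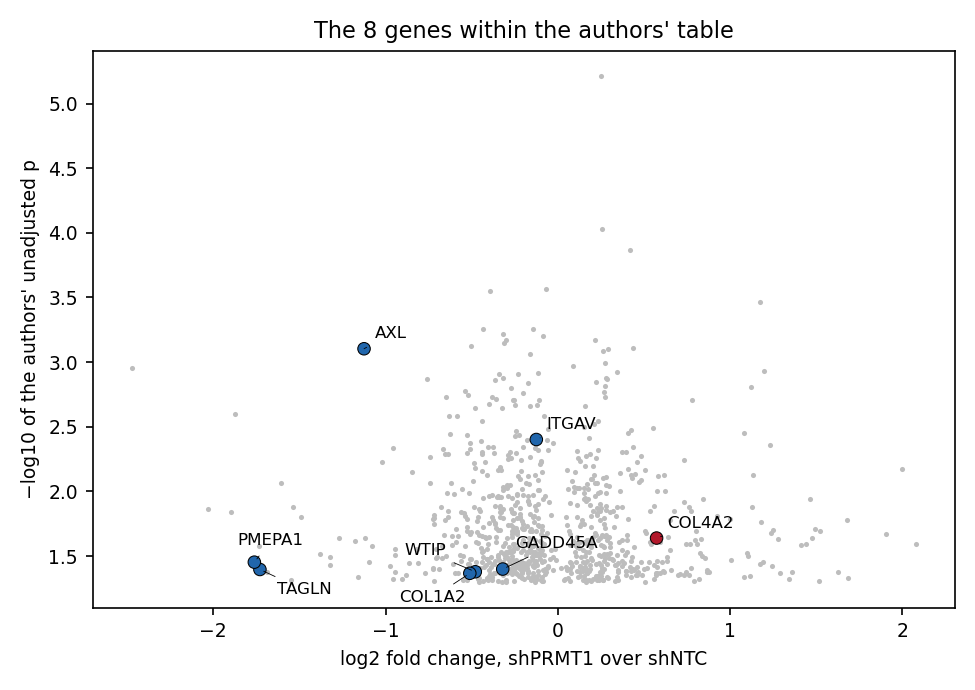
Log2 fold change (x) against −log10 of the unadjusted p (y) for the 858 genes of the authors' deposited table (grey), with the 8 genes in colour (blue under 0, red over 0). AXL lies at −1.13 with p of 0.000788, PMEPA1 and TAGLN lie far left at p of 0.0352 and 0.0401, and ITGAV has a small p at −0.13.

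Marker lists of other states and cell types differed in how many genes the table held, beside 11.2% over all genes tested. Of 8 endothelial markers, the authors' deposited table held 2 (25%), the cadherin CDH5 at 0.81 (p = 0.0254) and the secreted factor EGFL7 at 0.09 (p = 0.0242), both with a ratio over 1. PECAM1, VWF and KDR, other endothelial markers, were not in the table. All 4 samples are titled as the cell line MiaPaca-2, and the titles name no other cell type. The source of these marker values was not tested. Of 26 epithelial genes, the authors' deposited table held 2 (7.69%), the claudin CLDN4 at 0.53 (p = 0.0142) and the keratin KRT19 at −0.24 (p = 0.0207). COL1A2 was the 1 fibroblast marker of 10 in the table (10%), so DCN, LUM, PDGFRA and PDGFRB had no deposited value. No leukocyte marker of 10 was in it. Across all 18 lists, the authors' deposited table held 22 of 301 distinct genes (7.31%), 13 with a ratio under 1 and 9 over 1. Without the 8 chosen genes the table held 14 of 293 (4.78%). Taking out genes of the table can only lower this share, and list genes may not have been tested. The 4.78% is therefore not on the same base as the share over all genes tested. Of these 14, 6 had a ratio under 1, with a median log2 fold change of 0.10. Taking out the 8, of which 7 had a ratio under 1, itself lowers that count. Of all genes in the table, 58.4% had a ratio under 1, and the table's median was −0.12.

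**Figure D4:**
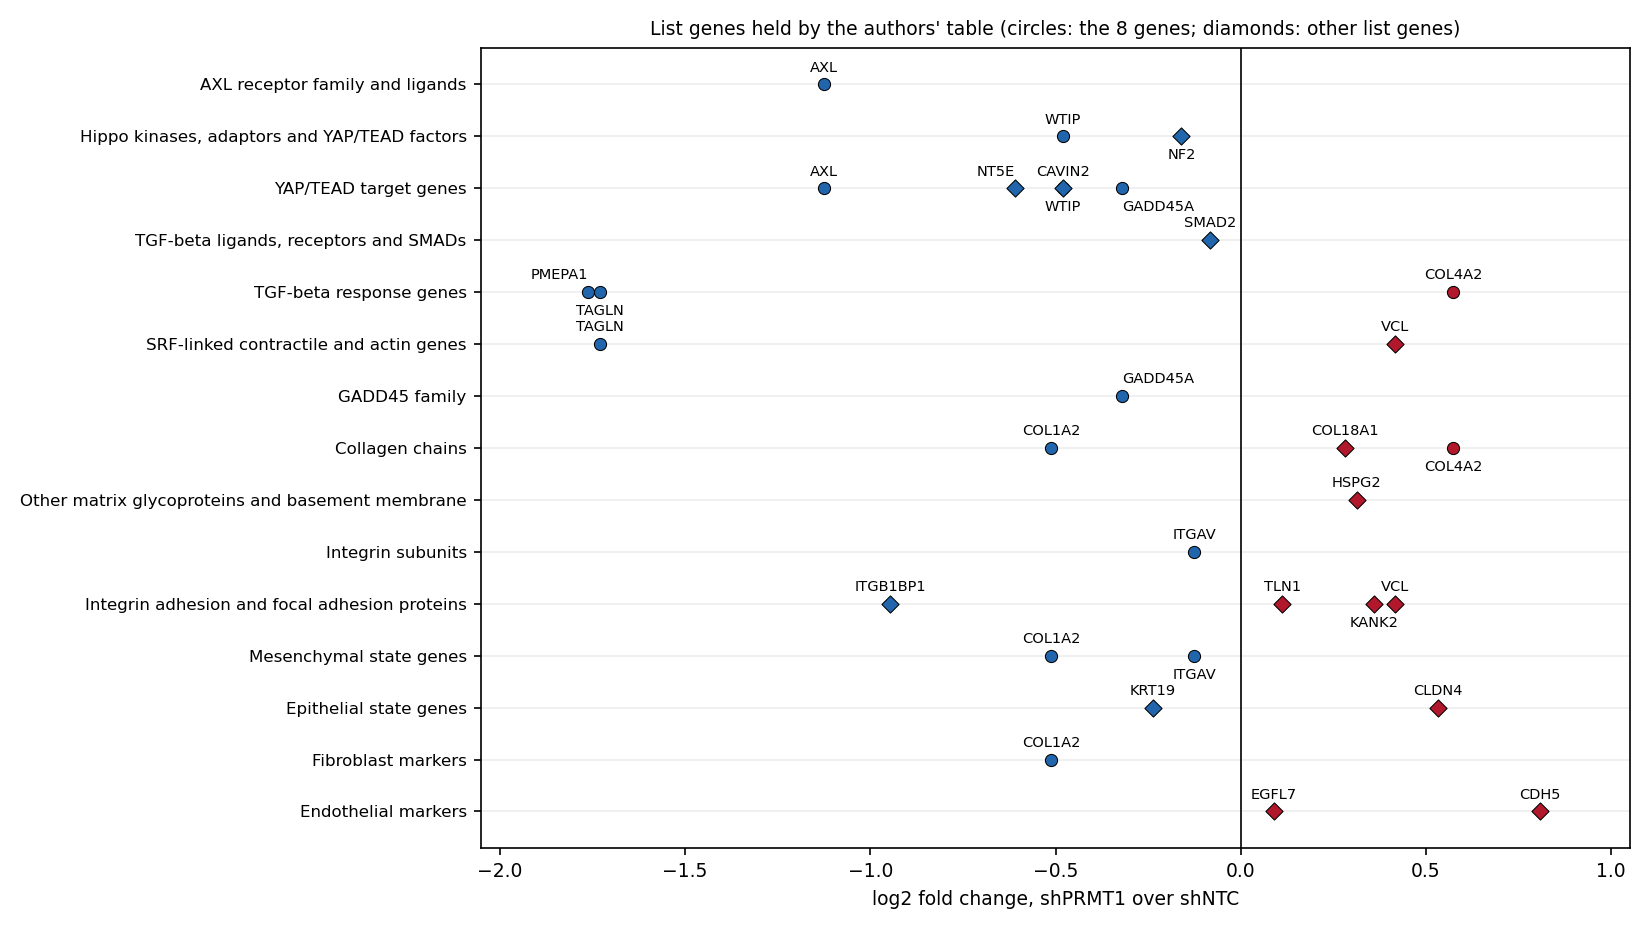
Log2 fold change of every list gene found in the authors' deposited table, one row per list; circles are the 8 genes, diamonds other list genes, blue under 0 and red over 0. The 5 YAP/TEAD target genes that the table holds lie left of 0, as do 58.4% of all its genes, and AXL, WTIP and GADD45A were chosen. Collagen and adhesion genes lie on both sides.

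Direction in the table also differed by transcript length, and the 8 genes are spread over it. The 846 genes matched to GENCODE 29 were put in 5 groups of equal size, ordered by their longest transcript. The share with a ratio under 1 was 67.6%, 76.3%, 63.9%, 47.9% and 37.9% from group 1 (shortest) to group 5 (longest). GADD45A, at 1496 nt, was in group 1 and TAGLN, at 3298 nt, in group 3. AXL (4737 nt) and PMEPA1 (4845 nt) were in group 4. COL1A2, COL4A2, ITGAV and WTIP, from 5993 to 13665 nt, were in group 5, and COL4A2 was the 1 of these 4 with the group's more frequent direction. COL18A1 and HSPG2 were in group 5 as well. The part of length in these values was not tested.

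**Figure D5:**
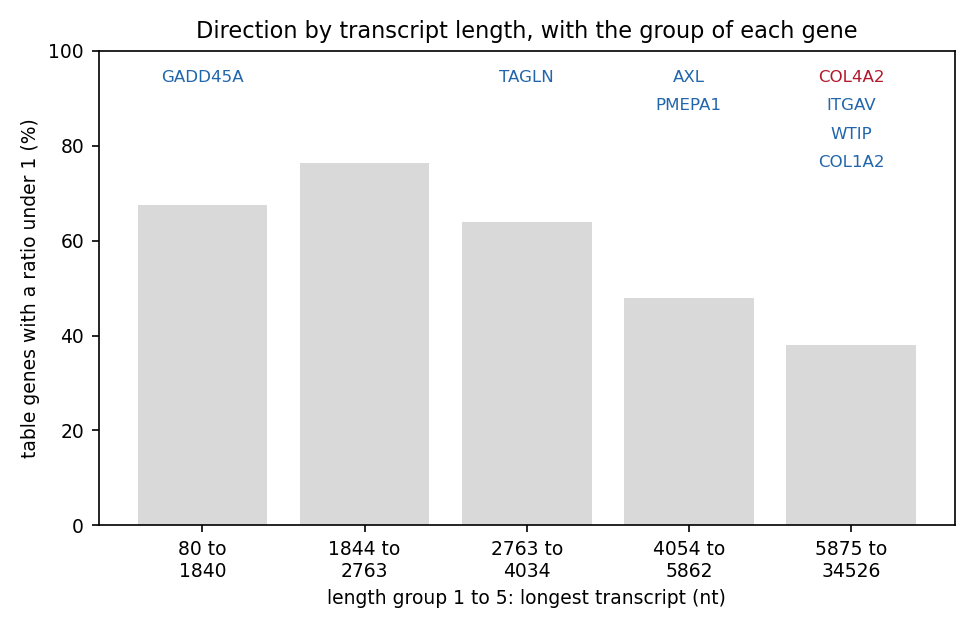
Share of genes with a ratio under 1 (bars, %) in 5 length groups of the authors' deposited table, by longest GENCODE 29 transcript (nt), with the names of the 8 genes above their group (blue under 1, red over 1). The bars go from 76.3% in group 2 to 37.9% in group 5, which holds COL1A2, COL4A2, ITGAV and WTIP.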

How the data were processed

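Total RNA libraries of 4 MiaPaca-2 samples (2 shPRMT1, 2 shNTC, grouped by title) were compared by the authors. The labels' extraction text also mentions a chromatin immunoprecipitation step, and the samples were taken as RNA because their molecule and library kit are RNA. The submitters' processing notes name HISAT2 2.2.1, edgeR 3.36.0, Trim Galore 0.6.7, deepTools and StringTie 2.2.1 and the build hg19, with no roles. The authors deposited a linear ratio (fold change), its log2 value, and a p-value and adjusted p-value per gene. The sources used here give neither their test nor their normalization or filter. The design held a count model for values per sample. Since only the comparison was at hand, its stated contingency was used: description, with no test.

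The deposited p-values were all under 0.05 and the log2 values equalled the log2 of the ratios. The number of tests came from p, rank and adjusted p (52 of 52 runs gave 7640 within 0.01), and this step recovered 50 of 50 when tested on simulated data. The 8 genes and the 18 lists were chosen with earlier results of these data known, and the motifs after the promoter sequences were seen. Named genes were the 8, PRMT1 and each list gene in the table. CPAMD8, HRH1, PCSK7 and genes given as not in the table were named after the values were seen. List genes were matched by symbol and older symbol (1 by an older symbol). A gene of 2 of the lists is not reported here and was taken out of their totals. GENCODE 29 and RefSeq (GRCh38.p14) are on another build than hg19, so they gave lengths, overlaps and promoter sequences only. Python 3.11.15, pandas 2.3.3, numpy 2.4.6, scipy 1.17.1 and matplotlib 3.10.9 were used.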

Additional observations from a re-analysis of the deposited data

How the results depend on the processing

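The count of 7 genes with a ratio under 1 stayed at 7 with all log2 values raised by 0.1, lowered by 0.1 or centred on the table's median, where ITGAV lay at −0.000238. These shifts could turn no sign, since each is smaller in size than the smallest of the 8 fold changes, ITGAV's −0.125. The count under them was thus fixed beforehand. Other settings changed the count of 7. It became 2 at an unadjusted p under 0.01, 1 under 0.001 and 0 at an adjusted p under 0.05. With log2 fold changes of at least 0.5 and 1 in size it became 4 and 3. Each threshold itself sets these counts. At p under 0.01, the 22 list genes in the table became 6 and the 5 YAP/TEAD target genes 2. The latter became 3 when each gene counted in its first list only. With the longer TEAD motif, the 2 windows of the 8 genes with a match (WTIP and AXL) became 1. The linear ratios gave the same log2 values, and runs of at least 2 equal adjusted p-values again gave 7640 tests. No paired analysis was possible because the comparison was used without per-sample values, and for the same reason no replicate was left out. The 4 samples and unknown depth limit every value: nothing says that replicates were separate cultures, so each p may reflect technical spread alone.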

Other observations

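Adhesion proteins on the cytoplasmic side of integrins formed a list of 20 genes. The authors' deposited table held 4 of them, 3 with a ratio over 1: VCL (vinculin) at a log2 fold change of 0.42, KANK2, a talin-binding adaptor of adhesion rims, at 0.36 (p = 0.0099), TLN1 (talin, the integrin activator) at 0.11 (p = 0.00937) and ITGB1BP1, which competes with talin for the beta-1 tail, at −0.95 (p = 0.0280). VCL had rank 3 of 858 by p in the authors' deposited table, although its adjusted p was 0.308. The share of 20.0% stands beside 11.2% over all genes tested. This list was chosen with earlier results of these data known, so its share and directions depend on that choice. By longest transcript, VCL and TLN1 are in group 5, where 37.9% of genes had a ratio under 1. KANK2 and ITGB1BP1 are in group 4, where that share was 47.9%. The part of length in these values was not tested.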
